A study of Mus musculus with 9 samples.

Results

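Small nucleolar RNAs (snoRNAs) were read from the arrays of 9 mouse embryonic stem cell (mESC) lines as every row whose annotation gave a single symbol starting with Snora or Snord and a digit. This rule found 56 rows with 51 symbols among 35556 rows of the array table, of which 23410 carried a gene. The H/ACA family (Snora) had 23 rows with 20 symbols and the C/D family (Snord) had 33 rows with 31 symbols. All 9 lines were labelled as C57BL/6 and female and were each grown from an individual blastocyst, first on mouse fibroblast feeders and then on gelatin, until RNA was taken at the eighth passage. The 3 mESCFB lines (FB1, FB2, FB3) came from blastocysts of natural mating, flushed from the uterus. The 3 mESCKAA lines (KAA1, KAA2, KAA3) came from IVF embryos kept in KSOM with amino acids under 5% O2, the optimal condition. The 3 mESCWM lines (WM1, WM2, WM3) came from IVF embryos kept in Whitten's Medium under 20% O2, the suboptimal condition. The medium and the oxygen level of the mESCKAA and mESCWM embryos differed together and cannot be told apart, and the lines themselves were all cultured alike after derivation. The question asked of the arrays was whether mESC lines kept traces of how their embryos were conceived and cultured.

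snoRNAs are short nuclear RNAs that guide the chemical modification of ribosomal and other RNAs. H/ACA snoRNAs direct pseudouridylation by dyskerin (Dkc1), and C/D snoRNAs direct 2′-O-methylation of ribose by fibrillarin (Fbl), while a few, such as U8 (Snord118) and U17 (Snora73a and Snora73b), are needed for cleavage of the ribosomal RNA precursor. Most vertebrate snoRNAs are cut out of introns of host genes, many of which code for ribosomal proteins or translation factors or are noncoding snoRNA host genes (Snhg), so that the snoRNA and the spliced host transcript arise from the same precursor.

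By gene position in RefSeq (GRCm38.p6), 51 member rows lay inside exactly 1 other gene. These were 37 different hosts, of which 16 had symbols starting with Rpl or Rps (ribosomal proteins) and 7 were long noncoding RNAs. Another 3 rows lay inside 2 genes, and the 2 rows of Snord118 lay in none. Host promoters are shown here because hosts of snoRNAs are known to start often with a pyrimidine tract, and because the results below set each snoRNA beside its host. The windows run from 30 bases before the transcription start to the first 30 transcribed bases, from RefSeq on GRCm38.p6, and capitals mark a run of at least 6 C or T on the transcribed strand with 6 or more of its bases between 5 bases before the start and base 15 of the transcript. The first 4 hosts carry Snora20, Snord37, Snora75 with Snord82, and Snora41. The last 4 carry Snora44 with Snora16a, Snord33 with Snord35a, Snora52, and Snord95 with Snord96a.
Tcp1, chr17:12916299-12916358, + strand: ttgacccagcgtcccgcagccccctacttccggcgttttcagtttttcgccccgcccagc
Eef2, chr10:81176601-81176660, + strand: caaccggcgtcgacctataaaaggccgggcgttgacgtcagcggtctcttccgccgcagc
Ncl, chr1:86359426-86359485, - strand: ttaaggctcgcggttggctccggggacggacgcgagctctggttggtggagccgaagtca
Eef1b2, chr1:63176801-63176860, + strand: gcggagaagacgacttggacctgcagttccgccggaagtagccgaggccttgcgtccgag
Snhg12, chr4:132308648-132308707, + strand: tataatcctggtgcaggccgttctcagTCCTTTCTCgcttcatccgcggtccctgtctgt
Rpl13a, chr7:45128716-45128775, - strand: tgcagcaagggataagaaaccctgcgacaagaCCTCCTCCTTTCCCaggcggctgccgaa
Rplp2, chr7:141447621-141447680, + strand: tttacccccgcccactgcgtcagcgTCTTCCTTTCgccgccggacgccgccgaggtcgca
Rack1, chr11:48800330-48800389, + strand: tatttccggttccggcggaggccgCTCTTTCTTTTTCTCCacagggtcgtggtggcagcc
Such a run stood in the window of 14 of 30 host promoters (46.7%), against 17.6% of all 32851 promoters. Counted by host, 13 of the 29 hosts with a promoter in the table had one (44.8%). No run in capitals says only that these letters were not at the searched positions of the annotated start.

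Markers of the cells were read before the snoRNAs. All 8 pluripotency markers measured lay above the median level of all rows, among them Pou5f1 at 10.1 to 10.4 and Dppa5a at 11.7 to 12.1 (log2 level). Of 10 markers of feeder fibroblasts, 5 lay above that median. The matrix genes Lum, Postn and Dcn were at 1.68 to 3.52 in all lines, and the list mean was 4.84 to 4.99 in mESCFB, 4.99 to 5.04 in mESCKAA and 5.00 to 5.27 in mESCWM. Acta2 (smooth muscle actin) was at 7.87 to 8.56 in mESCFB, 8.56 to 8.88 in mESCKAA and 8.87 to 9.82 in mESCWM. Vim (vimentin) was at 8.69 to 9.02, 8.81 to 9.11 and 9.28 to 9.82 in the same order of groups. Both lay higher in every mESCWM line than in every mESCFB line, and no other listed feeder marker did so. The 6 primitive endoderm markers had list means of 4.58 to 5.87, 4.89 to 6.16 and 4.48 to 4.91 in the same order of groups, with FB1 and KAA1 highest (Gata6 at 6.34 and 7.01). The part of these markers in the results below was not tested. The Y-linked gene Eif2s3y went against the female label in 3 lines, at 4.78 in FB1, 3.72 in KAA2 and 5.19 in WM3 against at most 2.20 in the other 6 lines, and Uty was at 2.63 to 4.42 in these lines against at most 2.11. Kdm5d, also Y-linked, did not follow them, at 1.96 to 2.46 in the 9 lines with WM2 highest. The X-linked RNA Xist, listed with them as a check of the label, was under the median level of all rows in every line. It was at 2.53 in FB1, 2.57 in KAA2 and 2.97 in WM3, and at 2.73 to 3.95 in the other 6 lines. The main results below are therefore also given without FB1, KAA2 and WM3.

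The values are log2 levels made by RMA, and a difference of 1 between group means is a 2-fold ratio. Each difference was tested with limma over all 9 lines, adjusted over the 23410 rows with a gene, and with the rank product, the test named by the study's methods, whose threshold is a percentage of false positives (pfp) under 0.05 in each direction. Levels of different rows are not compared with each other, because probes differ in brightness.

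The snoRNAs of both families lay lower in mESCWM than in mESCFB in most rows. Of the H/ACA rows, 22 of 23 had a lower mean in mESCWM, and the median difference was -0.51. Of the C/D rows, 28 of 33 had a lower mean, with a median difference of -0.28. Among all 23410 rows, 48.3% had a lower mean in mESCWM and the median difference was 0.0046. No member passed limma's threshold, and neither did any of the 23410 rows (0% called), with a smallest adjusted p of 0.732 among the H/ACA rows and 0.760 among the C/D rows. At an unadjusted limma p under 0.05, 9 H/ACA and 6 C/D rows were lower, against 3.17% of all rows. None were higher, against 2.73% of all rows. The 3 mESCWM lines all lay below the 3 mESCFB lines in 6 H/ACA and 5 C/D rows, where 4.55% of all rows did so. None lay wholly above, against 3.58% of all rows. The rank product called 2 members lower and none higher, where it called 0.0854% of all rows lower and 0.0214% higher. Without FB1, KAA2 and WM3, 22 of 23 H/ACA and 32 of 33 C/D rows were lower, with median differences of -0.78 and -0.40. Without FB2 alone the H/ACA median was -0.36, with 20 of 23 rows lower, and without WM2 alone the C/D median was -0.19, with 26 of 33 lower. Of the 10 listed feeder markers, only Acta2 and Vim lay wholly higher in mESCWM in this same comparison (values above), and their part in it was not tested.

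**Figure D1:**
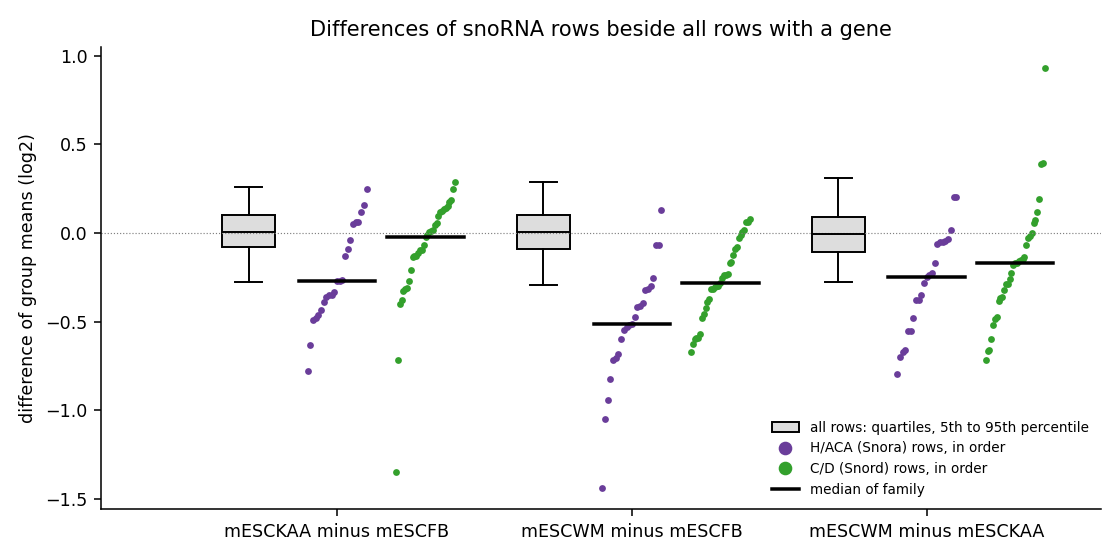
Difference of group means (log2) of each snoRNA row in the 3 comparisons, H/ACA and C/D rows as points in order of value with the family's median as a line, beside a box of all 23410 rows with a gene (quartiles, whiskers at the 5th and 95th percentile). The H/ACA points of mESCWM minus mESCFB centre on -0.51 and those of the C/D family on -0.28, while the boxes centre near 0.

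Snora20, an H/ACA snoRNA from an intron of Tcp1 (a subunit of the chaperonin that folds actin and tubulin) on chromosome 17, had the lowest difference in this comparison, among the members and among all 23410 rows. Its log2 levels were 6.42, 7.07 and 6.97 in FB1, FB2 and FB3, 6.83, 5.80 and 5.49 in KAA1, KAA2 and KAA3, and 5.56, 4.98 and 5.59 in WM1, WM2 and WM3. All mESCWM lines lay below all mESCFB lines, and the mESCKAA lines were split, with KAA1 among the mESCFB values and KAA3 among the mESCWM values. The difference of mESCWM from mESCFB was -1.44 ± 0.34 (SE, n = 3 lines per group, limma adjusted p = 0.732). It passed the rank product with a pfp of 0, meaning that no permuted value was as low. The call held without FB1, KAA2 and WM3 (pfp 0.0133) and did not hold without FB3 (pfp 0.150) or with every row of the array included (pfp 0.0535).

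Snora75, from an intron of Ncl (nucleolin, an abundant nucleolar protein) on chromosome 1, was the other member called by the rank product. Its levels were 6.22, 6.70 and 5.85 in the mESCFB lines, 5.90, 5.26 and 6.55 in the mESCKAA lines and 5.27, 4.53 and 5.82 in the mESCWM lines. The groups mESCFB and mESCWM were kept apart only by a narrow gap between FB3 and WM3. The difference was -1.05 ± 0.40 (SE, n = 3 lines per group, limma adjusted p = 0.819) with a pfp of 0.046. The pfp was 0.131 without FB1, 0.297 without FB2, 0.150 without FB3, 0.074 without WM1, 0.288 without WM2, 0.134 with every row of the array and 0.07 without FB1, KAA2 and WM3, so that the call was lost in each of these settings.

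Snora41, from an intron of the elongation factor gene Eef1b2, came next at -0.94 ± 0.35 (limma adjusted p = 0.819). It was at 5.84, 7.17 and 6.43 in mESCFB, 5.62, 6.13 and 6.52 in mESCKAA and 5.15, 5.67 and 5.79 in mESCWM. FB2 was the highest of the 9 lines, and WM3 stood just under FB1. Snora74a (U19), whose host is the noncoding gene Snhg4, differed by -0.82 ± 0.35 (limma adjusted p = 0.819), with 7.75, 8.18 and 8.06 in mESCFB, 7.35, 7.60 and 8.23 in mESCKAA and 6.58, 6.99 and 7.95 in mESCWM. Its groups overlapped through WM3. The U17 RNAs Snora73a and Snora73b, both from Snhg3, had differences of -0.68 and -0.53.

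At the other end of the H/ACA family, Snora2b was the single row with a higher mean in mESCWM, by 0.13 ± 0.13 (limma adjusted p = 0.898), and it was dim, at 1.90 to 2.44 in the 9 lines. The 2 rows of Snora30 differed by -0.07 and Snora16a by -0.26, each with overlapping groups.

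**Figure D2:**
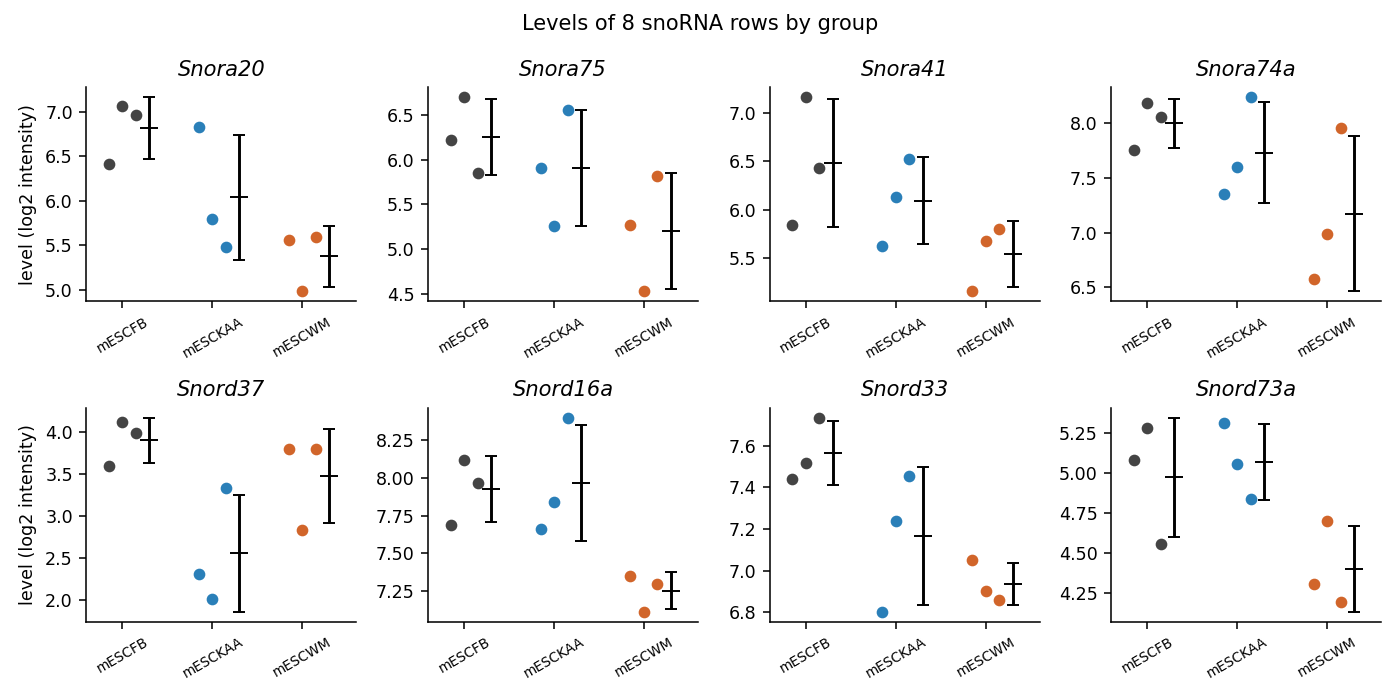
Log2 level of 8 snoRNA rows in each line (points, in the order of the line numbers) of mESCFB, mESCKAA and mESCWM, with the group mean and SD beside them (n = 3). Snora20 was at 4.98 to 5.59 in mESCWM against 6.42 to 7.07 in mESCFB, and Snord37 was at 2.01 to 3.34 in mESCKAA against 3.60 to 4.12 in mESCFB.

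In the C/D family the differences between mESCWM and mESCFB were smaller, from -0.67 to 0.08. The lowest was Snord16a, from an intron of the ribosomal protein gene Rpl4, with 7.69, 8.12 and 7.97 in mESCFB, 7.66, 7.84 and 8.40 in mESCKAA and 7.35, 7.11 and 7.29 in mESCWM. All 3 mESCWM lines lay below the other 6 lines. The difference was -0.67 ± 0.19 from mESCFB (limma adjusted p = 0.808) and -0.72 ± 0.19 from mESCKAA (limma adjusted p = 0.752). Snord33, one of several C/D snoRNAs in introns of Rpl13a that are known from work on lipotoxic stress, was at 7.44, 7.52 and 7.73 in mESCFB, 6.80, 7.24 and 7.45 in mESCKAA and 7.05, 6.90 and 6.86 in mESCWM. Its difference from mESCFB was -0.63 ± 0.16 (limma adjusted p = 0.760), with the mESCWM lines below all mESCFB lines and the mESCKAA lines spread over both.

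Snord61, from the X-linked gene Rbmx, differed by -0.60 ± 0.64 and had the largest spread of all members. It was at 2.84, 3.12 and 4.72 in mESCFB, 3.86, 2.18 and 2.49 in mESCKAA and 3.12, 3.76 and 2.00 in mESCWM. In each group the lowest value belonged to the line with the highest Eif2s3y (FB1, KAA2 and WM3), and the part of the sex chromosomes in it was not tested. Snord52 differed by -0.59 ± 0.31. The C/D rows with the highest differences were Snord42a (0.08), Snord82 (0.06) and the 2 rows of Snord58b (0.06 and 0.02), all with overlapping groups.

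Between mESCKAA and mESCFB, 17 of 23 H/ACA rows had a lower mean in mESCKAA, with a median difference of -0.27, while the C/D rows were nearly balanced, with 18 of 33 lower and a median of -0.02. This comparison shares its mESCFB lines with the one above. Of all rows, 47.5% had a lower mean in mESCKAA, with a median of 0.0067. No member and no other row passed limma's threshold (0% called; smallest adjusted p 0.918). At an unadjusted limma p under 0.05, 2 H/ACA rows and 2 C/D rows were lower, against 2.08% of all rows. None were higher, against 2.73%. The mESCKAA lines lay wholly below the mESCFB lines in 3 H/ACA and 2 C/D rows, where 3.7% of all rows did so. None lay wholly above, against 4.38%. The rank product called 1 member lower and none higher, against 0.0812% and 0.0128% of all rows. The H/ACA median moved to -0.07 without FB2 and to -0.12 without KAA1, was -0.42 without KAA3, and was -0.33 without FB1, KAA2 and WM3. The C/D median was 0.04 without KAA1, -0.14 without KAA3, -0.05 without FB1, -0.05 without FB3 and -0.02 without FB1, KAA2 and WM3.

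The member called was Snord37, a C/D snoRNA from an intron of Eef2 (the translocation factor of translation) on chromosome 10. Its levels were 3.60, 4.12 and 3.99 in mESCFB, 2.31, 2.01 and 3.34 in mESCKAA and 3.80, 2.83 and 3.80 in mESCWM. The mESCKAA lines lay below all mESCFB lines, and KAA3 lay above WM2. All these levels are under 4.67, the median level of rows with a gene, so the row was dim. The difference of mESCKAA from mESCFB was -1.35 ± 0.37 (SE, n = 3 lines per group, limma adjusted p = 0.918, pfp 0.01). The pfp was 0.095 without FB2, 0.322 without FB3, 0.062 without FB1, KAA2 and WM3 and 0.0862 with every row of the array.

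Snora20 had the lowest H/ACA difference in this comparison, -0.78 ± 0.34 (pfp 0.115), followed by Snora73a with -0.63 ± 0.23, Snora44 with -0.49 ± 0.26 and Snora73b with -0.48 ± 0.22. In both U17 rows FB2 was the highest line (10.46 and 10.68), and KAA2 was the lowest or next to lowest (9.18 and 9.57). Among the C/D rows, Snord61 (-0.72 ± 0.64), Snord33 (-0.40 ± 0.16) and 1 row of Snord58b (-0.38 ± 0.18) followed Snord37. The 4 highest differences of the C/D family were Snord57 at 0.29 ± 0.22, Snord55 at 0.25 ± 0.19, Snord35a at 0.18 ± 0.35 and Snord53 at 0.17 ± 0.22. Those of the H/ACA family were Snora31 at 0.25 ± 0.28, Snora62 at 0.16 ± 0.32, Snora2b at 0.12 ± 0.13 and 1 row of Snora3 at 0.06 ± 0.18. None of these passed either test.

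Between the 2 IVF groups, 20 of 23 H/ACA rows and 25 of 33 C/D rows had a lower mean in mESCWM than in mESCKAA, with medians of -0.25 and -0.17, where 52.1% of all rows were lower and their median was -0.0068. Again no row passed limma's threshold (0% called; smallest adjusted p 0.771 among H/ACA and 0.752 among C/D rows). At an unadjusted limma p under 0.05, 2 H/ACA and 5 C/D rows were lower, against 3.29% of all rows, and 1 C/D row was higher, against 3% of all rows. The mESCWM lines lay wholly below the mESCKAA lines in 5 C/D and no H/ACA rows (4.63% of all rows), and wholly above them in the 2 rows of Snord58b (4.03% of all rows). The rank product called 1 member higher and none lower, where it called 0.299% of all rows higher and 0.0256% lower. Without FB1, KAA2 and WM3, 17 of 23 H/ACA and 27 of 33 C/D rows were lower, with medians of -0.36 and -0.36. The C/D median was -0.32 without KAA1, -0.27 without KAA2, -0.26 without WM3 and -0.09 without KAA3, and the H/ACA median was -0.16 without WM1.

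The member called higher was again Snord37, at 0.93 ± 0.37 in mESCWM over mESCKAA (SE, n = 3 lines per group, limma adjusted p = 0.771, pfp 0.0319), with overlapping groups. This is the same set of mESCKAA values as in the comparison with mESCFB. The pfp stayed under the threshold without KAA3 (0.0136) and was 0.105 without KAA1, 0.226 without KAA2, 0.347 without WM1, 0.0561 without WM2, 0.223 without WM3, 0.166 with every row of the array and 0.623 without FB1, KAA2 and WM3.

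The 4 lowest differences of each family between the IVF groups were those of Snora31 (-0.80 ± 0.28, from an intron of Tpt1), Snord16a (above), Snora75 (-0.70 ± 0.40), Snora62 (-0.67 ± 0.32), Snord73a (-0.67 ± 0.21), Snord35a (-0.66 ± 0.35), Snora20 (-0.66 ± 0.34) and Snord73b (-0.60 ± 0.24). Snord73a and Snord73b, which lie in the same host, Rps3a1, had mESCWM levels below all mESCKAA levels. Snord73a was at 5.31, 5.06 and 4.83 in mESCKAA and 4.30, 4.70 and 4.19 in mESCWM. Snord73b was at 4.43, 4.72 and 4.54 against 3.97, 3.66 and 4.26. Next to Snord37, the highest C/D differences were the 2 rows of Snord58b at 0.39 ± 0.18 and Snord42a at 0.19 ± 0.20. The highest H/ACA differences were the 2 rows of Snora30 at 0.21 ± 0.22, Snora2b at 0.01 ± 0.13 and Snora69 at -0.04 ± 0.22. WM3 alone set the higher mean of Snord42a, which was -0.02 without it.

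The lines of a group differed more from each other in snoRNAs than in most rows. The pooled SD within groups, taken over the 3 groups, had a median of 0.34 in the H/ACA rows and 0.31 in the C/D rows against 0.16 over all rows with a gene. It lay above the 90th percentile of all rows (0.30) in 18 of 23 H/ACA and 17 of 33 C/D rows. Of rows at or above the median level, 11.8% lay above that value, and 20 H/ACA and 24 C/D rows were at or above that level. Some other short RNAs were spread as widely. The pooled SD was 0.24, 0.27 and 0.46 in the small Cajal body RNAs Scarna13, Scarna17 and Scarna8. In small nuclear and related RNAs it ran from 0.10 (Rn7sk) to 0.43 (Rnu3a). The H/ACA SDs ran from 0.16 to 0.58, with Snora75 (0.58), Snora41 (0.50), Snora74a (0.50), Snora20 (0.49) and Snora62 (0.46) at the top. The C/D SDs ran from 0.09 (Snord96a) to 0.93 (Snord61), with Snord87 (0.61), Snord37 (0.54), Snord22 (0.51) and Snord35a (0.50) next. Each group has only 3 lines. These SDs are of single lines and are not the SE of a difference between group means. For Snora20 the SD was 0.49 and the SE 0.34.

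**Figure D3:**
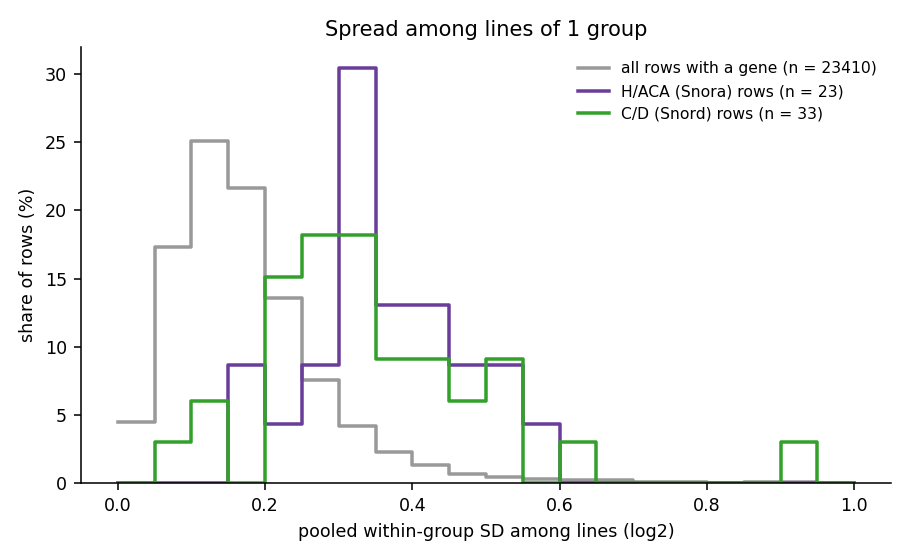
Share of rows (%) by pooled within-group SD among lines (log2, steps of 0.05) for H/ACA rows, C/D rows and all 23410 rows with a gene. The snoRNA rows sit to the right of all rows, with medians of 0.34 and 0.31 against 0.16.

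Lines also differed in the median over the snoRNA rows. The pooled within-group SD of these line medians was 0.23 in the H/ACA and 0.16 in the C/D rows. The median SD of single rows was 0.34 and 0.31. How much of a row's spread was shared by the rows of a line was not tested. With each row set to its own mean over the 9 lines, the median deviation of the H/ACA rows was -0.03 in FB1, 0.52 in FB2, 0.14 in FB3, -0.17 in KAA1, -0.03 in KAA2, 0.14 in KAA3, -0.44 in WM1, -0.33 in WM2 and 0.0081 in WM3. FB2 lay above the row's mean in all 23 H/ACA rows and was the highest of the 9 lines in 15, while WM2 was the lowest in 8 and WM1 in 6. The C/D rows gave 0.02, 0.06, 0.17, -0.13, 0.02, 0.23, -0.23, -0.32 and 0.04 in the same order of lines. There, KAA3 was highest in 11 of 33 rows and FB3 in 7, and WM2 was lowest in 11. WM1 and WM2 thus lay low in both families while WM3 lay near the mean, and FB2 stood at 0.52 in the H/ACA rows but at 0.06 in the C/D rows. Members share a line's RNA sample and are not separate evidence on it.

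**Figure D4:**
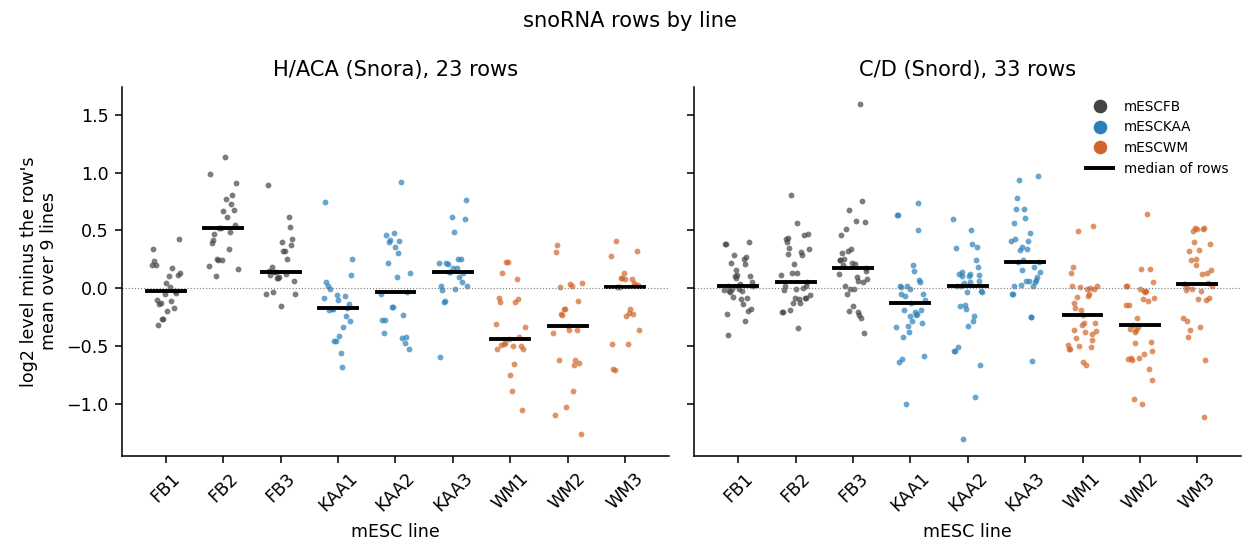
Log2 level of each snoRNA row minus its own mean over the 9 lines, by line, for the 23 H/ACA and 33 C/D rows (points), with the median of the rows as a bar. FB2 is at 0.52 in the H/ACA rows, and WM1 and WM2 lie below 0 in both families while WM3 is at 0.0081 and 0.04.

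Other short RNAs were read the same way. The 305 rows of microRNA precursors with 1 symbol had median deviations of -0.06 to 0.03. The 22 rows of small nuclear and related RNAs (symbols starting with Rnu or Rn7s) were at -0.02, 0.01 and 0.20 in mESCFB, -0.15, 0.22 and -0.07 in mESCKAA and -0.23, -0.18 and 0.10 in mESCWM. They held 12 different sets of values, and with 1 row per set, a choice made after seeing the data, WM1, WM2 and WM3 were at -0.10, -0.09 and 0.07, while KAA1 was lowest at -0.15. The median deviation over all rows with a gene stayed between -0.01 and 0.0041. Whether the recovery or labelling of short RNA differed between these lines was not tested.

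The measured hosts, all of them protein coding, lay close to 0 where their snoRNAs lay low. A host row with a single gene was measured for 29 member rows in 22 hosts, and none of the 7 long noncoding hosts was among them. Some hosts had several such rows, as Rps12 with 14 and Rpl23a with 13. For these the row with the highest mean was taken and the other rows were not used, so the choice favours bright rows. Noncoding snoRNA host genes with a row of their own are given with the pathway genes. There 7 of 8 were lower in mESCWM than in mESCFB, against 48.3% of all rows. Of these 8, only Gas5 encloses a member, Snord47, which lay inside 2 genes and was not used. The median pooled SD was 0.34 in the members and 0.05 in the hosts, and the member's SD was above its host's in 29 of 29 rows. In mESCWM minus mESCFB the median difference was -0.41 in these members against 0.0016 in their hosts, and the member's difference was the larger in size in 28 of 29. The counts were 24 of 29 in mESCKAA minus mESCFB and 24 of 29 in mESCWM minus mESCKAA. Host levels ran from 4.76 to 12.7 with a median of 11.7, near the top of the scale, and whether bright rows respond less was not tested.

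Tcp1, the host of Snora20, was at 10.05 to 10.06 in mESCFB, 9.98 to 10.07 in mESCKAA and 10.07 to 10.14 in mESCWM. Its difference of mESCWM from mESCFB was 0.04 where Snora20 had -1.44. The paper lists Tcp1 among its genes lower in mESCWM than in mESCFB, which the row read here did not show. Eef2, the host of Snord37, stayed between 11.55 and 11.62 in all lines and differed by -0.03 between mESCKAA and mESCFB where Snord37 had -1.35. Eef1b2 differed by 0.01 in mESCWM minus mESCFB where Snora41 had -0.94, and Rpl4 by 0.00083 where Snord16a had -0.67. The host with the largest difference was Rbmx, at -0.41, and its snoRNA Snord61 was at -0.60.

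**Figure D5:**
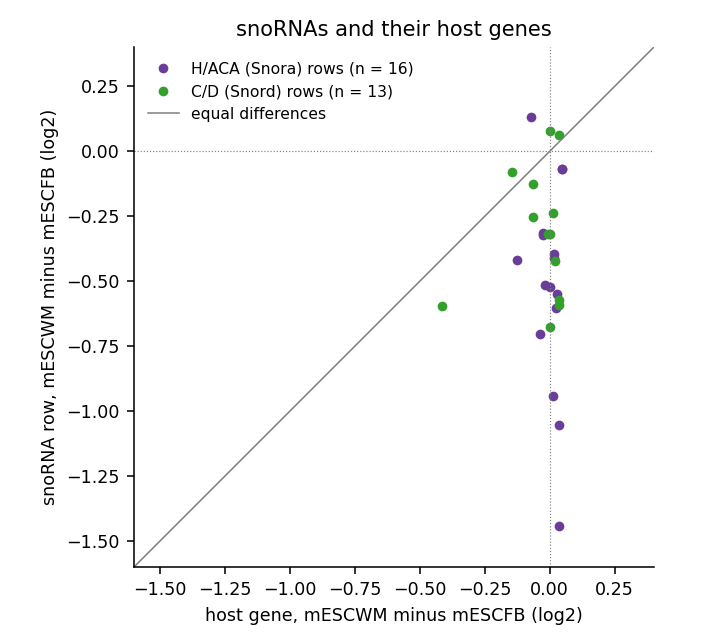
Difference of mESCWM from mESCFB (log2) of each snoRNA row against that of its host gene, for 16 H/ACA and 13 C/D rows, with the line of equal differences. The hosts lie between -0.41 and 0.05, and the snoRNAs between -1.44 and 0.13.

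Members of the same host could be set side by side in 10 hosts. In Ncl (itself at 0.04), Snora75 had -1.05 and Snord82 0.06 in mESCWM minus mESCFB. In Snhg12, Snora44 had -0.71 and Snora16a -0.26, and in Rpl23a, Snord42b had -0.32 and Snord42a 0.08. Close pairs were also found, with Snord73a at -0.57 and Snord73b at -0.59 in Rps3a1, and Snora73a at -0.68 and Snora73b at -0.53 in Snhg3. In Rpl13a, Snord33 and Snord35a had -0.63 and -0.48 in mESCWM minus mESCFB but -0.40 and 0.18 in mESCKAA minus mESCFB. The gaps between members of a host were not tested.

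The proteins that build, trim and use snoRNAs were read from lists of pathway genes. None of the listed genes passed limma's threshold in any comparison. The H/ACA proteins had a lower mean than in mESCFB in 4 of 4 genes in both IVF groups, with median differences of -0.08 in mESCKAA and -0.19 in mESCWM. Dkc1, the pseudouridine synthase itself, differed by -0.37 ± 0.10 in mESCKAA and by -0.35 ± 0.10 in mESCWM (limma adjusted p = 0.918 and 0.819). Its levels were 8.64, 8.75 and 8.62 in mESCFB, 8.44, 8.11 and 8.36 in mESCKAA and 8.23, 8.31 and 8.42 in mESCWM. Gar1, another core protein of the particle, differed by -0.26 ± 0.11 in mESCWM (limma adjusted p = 0.819). The C/D proteins (Fbl, Nop56, Nop58, Snu13) were lower in 4 of 4 in both groups, with medians of -0.07 and -0.09, Nop56 standing at -0.14 ± 0.09 in mESCWM. All 3 comparisons share lines in pairs, so the 2 differences of a gene from mESCFB are not separate evidence.

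Among 14 assembly and Cajal body factors, 10 were lower in mESCKAA and 9 in mESCWM than in mESCFB, with medians of -0.08 and -0.09. Among 9 genes of snoRNA release and trimming, 9 and 8 were lower, with medians of -0.11 and -0.15. Dbr1, which opens the intron lariats from which snoRNAs are trimmed, had the smallest p of them, at -0.29 ± 0.07 in mESCWM minus mESCFB (limma adjusted p = 0.733). It was at 6.71, 6.75 and 6.77 in mESCFB, 6.70, 6.55 and 6.68 in mESCKAA and 6.43, 6.48 and 6.46 in mESCWM. Of the noncoding snoRNA hosts, 8 of 22 were measured in a row of their own, and 4 were lower in mESCKAA and 7 in mESCWM than in mESCFB, with medians of -0.07 and -0.18. Snhg5 differed by -0.31 ± 0.17 in mESCWM and Gas5 by -0.13 ± 0.09, the 2 smallest p of this list.

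The 5 rows of each family with the highest mean signal over the 9 lines are also described, an order of probe signals and not of RNA amounts. In the H/ACA family they were Snora73b, the 2 rows of Snora3, Snora73a and Snora52, and in the C/D family Snord104, Snord49b, Snord16a, Snord33 and Snord14e. Snora3, from Rpl27a, differed by -0.32 in mESCWM and by 0.06 in mESCKAA from mESCFB in both rows. Snord104 was at 9.79, 9.91 and 9.92 in mESCFB, 9.47, 10.39 and 10.21 in mESCKAA and 9.31, 9.65 and 9.54 in mESCWM, with its mESCWM lines below all mESCFB lines. Snord49b stayed between 8.62 and 9.02 in all 9 lines. Snord14e (U14, needed for 18S ribosomal RNA) ran from 6.57 to 7.77, with its groups overlapping.

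Some symbols had 2 rows. Those of Snora30 and of Snord118 held identical values in all 9 lines, and those of Snora21, Snora3 and Snord58b differed by at most 0.10, 0.08 and 0.39. Each of these pairs reads the same RNA, so the counts of rows above hold 5 symbols more than once. Snora21, from Rpl23, was at 6.23 to 6.54 in mESCFB, 5.74 to 6.18 in mESCKAA and 5.41 to 6.49 in mESCWM over both rows. Its mESCKAA lines lay below all mESCFB lines in both rows, with differences of -0.36 and -0.33, and WM2 and WM3 were apart by over 1. The paper lists Snora21 as lower in mESCKAA than in mESCFB by the rank product. Here the rank product gave its rows a pfp of 0.730 and 0.790, so neither was called. Snord37, Snora20 and Snora75, which were called here, are not in the paper's lists. Snord118 (U8) ran from 5.77 to 6.95, with KAA2 lowest and KAA1 highest.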

How the data were processed

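The authors deposited log2 levels, 1 array per line, made by RMA with affylmGUI (background correction, normalization between arrays, summary of probes per transcript cluster), and the submitters' processing notes name Affymetrix Expression Console and R 3.1.0. The genome build is not given in the sources used here, so no position of a member is printed. RNA was total RNA from column kits, whose recovery of RNA as short as a snoRNA was not tested, and probes for a snoRNA also match the host's intron, so mature snoRNA and unspliced host RNA cannot be told apart. The 9 arrays had medians of 4.64 to 4.70, and their number limits the precision.

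Of 35556 rows, 12146 had no gene in the platform annotation, 21789 had 1 symbol and 1621 had several. Lines came from separate blastocysts and were grouped by their titles. limma 3.58.1 in R 4.3.3 (lmFit, eBayes, 1 mean per group) was fitted to the 23410 rows with a gene, two-sided, with Benjamini-Hochberg adjustment. The rank product was written in numpy 2.4.6 with 9 pairwise differences and 100 permutations within arrays. Both were also run on simulated data, whose rows were drawn independently of each other. That run held no effect shared by the rows of a line, so it does not show how the tests behave under one. pandas 2.3.3, statmod 1.5.0 and matplotlib 3.10.9 were also used. All 56 members matched RefSeq by gene ID. Hosts are genes that enclose a member, and their strand could not be checked.

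Members and lists were chosen with earlier results of these data known. Named were members past limma or the rank product, Snord37, Snora20 and Snora21, per family the 5 brightest rows, the 5 with the largest SD and the 4 lowest and highest differences per comparison, their hosts, and up to 2 genes per pathway list. Snord118, Snord42b, Snord96a and other members outside these terms were named after their values were seen. Alternatives were median centring, quantile normalization, every row of the array, only the brighter rows (at least the median level), a replicate block, 1 row per symbol, trend with robust eBayes, 2 groups only, a pfp under 0.1, leaving out each line, and leaving out FB1, KAA2 and WM3.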

Additional observations from a re-analysis of the deposited data

How the results depend on the processing

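limma called 0 members in each comparison under every alternative of the fit, leaving out each line included. The rank product in place of limma called 1 in mESCKAA minus mESCFB, 2 in mESCWM minus mESCFB and 1 in mESCWM minus mESCKAA. In that order of comparisons it called 0, 0 and 0 with every row of the array and 0, 2 and 0 among rows at or above the median level, where Snord37 was not tested because it is dimmer. It called 0, 1 and 1 without FB1, KAA2 and WM3, and between 0 and 3, 0 and 3, and 0 and 4 when each line was left out in turn. Quantile normalization and a pfp under 0.1 kept the counts within 1.5 times. The median differences kept their sign in every alternative except the C/D median of mESCKAA minus mESCFB, which ran from -0.14 to 0.04 when each line was left out. The H/ACA median of mESCWM minus mESCFB was -0.78, and the C/D median of mESCWM minus mESCKAA -0.36, without FB1, KAA2 and WM3. The cause was not tested. The median SD stayed between 0.32 and 0.37 in the H/ACA rows and 0.30 and 0.37 in the C/D rows.

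The correlation of deviations from the group means between lines of the same number ran from -0.01 to 0.33, and not every one was over 0.1. Lines of different numbers were not set beside these, so whether the line numbers pair the lines cannot be told from them. With the replicate block limma called 0 members in each comparison, and the median SD was 0.32 in the H/ACA and 0.30 in the C/D rows.

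Of 697 values of named differences under an alternative, 667 kept their sign and 30 in 14 differences did not, all of them when lines were left out. In mESCWM minus mESCFB, leaving out each line gave -0.19 to 0.32 for Snord82, -0.14 to 0.25 for Snord42a, -0.17 to 0.12 and -0.13 to 0.16 for the 2 rows of Snord58b and -0.26 to 0.13 for Snora30. In mESCKAA minus mESCFB it gave -0.0024 to 0.21 for Snora2b, -0.025 to 0.44 for Snord53, -0.14 to 0.42 for Snord35a, -0.071 to 0.23 for Snora3 and -0.16 to 0.47 for Snora62. In mESCWM minus mESCKAA it gave -0.023 to 0.37 for Snord42a, -0.056 to 0.11 for Snora2b and -0.19 to 0.21 for Snora69. Without FB1, KAA2 and WM3, Snord42a was at -0.061 and the rows of Snord58b at -0.10 and -0.066 in mESCWM minus mESCFB, Snora2b at -0.10, Snora3 at -0.18 and Snora62 at -0.28 in mESCKAA minus mESCFB, and Snord42a at -0.044 in mESCWM minus mESCKAA. None of these differences passed limma in the main setting.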

Other observations

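Rows of snoRNAs whose annotation gave several symbols fell outside the rule. There were 41 of these, and 24 of them are shared by copies of Snord116, the C/D family of an imprinted gene cluster expressed from the paternal copy. The 24 rows held 7 different sets of values, so they are not separate measurements. WM3 was the highest of the 9 lines in all 24, at 3.71 to 4.26, while the other 8 lines ran from 1.96 to 3.14. WM3 is also the line with the highest level of the Y-linked gene Eif2s3y.

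Small Cajal body RNAs guide the modification of spliceosomal RNAs, and their 4 rows had a median deviation from their own means of -0.18, 0.38 and -0.04 in FB1, FB2 and FB3, of -0.27, 0.50 and 0.14 in KAA1, KAA2 and KAA3, and of -0.14, -0.08 and -0.32 in WM1, WM2 and WM3. Both rows of Scarna17 held identical values, so these 4 rows are not separate measurements. FB2 stood high in them, as it did in the H/ACA rows, and KAA2 stood higher. Rnu3a (U3, the C/D snoRNA of the small ribosomal subunit processome, whose symbol the rule does not take) was at 8.52, 7.87 and 8.21 in mESCFB, 7.52, 7.55 and 8.32 in mESCKAA and 8.03, 8.24 and 7.30 in mESCWM, with overlapping groups. The 2 rows of Rn7sk, a long-lived nuclear RNA that holds back transcription elongation, stayed between 12.01 and 12.46 in all lines.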
